A study of Homo sapiens with 8 samples.

Results

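The genes described here act in the Fanconi anaemia pathway, in homologous recombination and in the ATR and ATM damage checkpoint. A list of 35 symbols was matched by gene name to the 32087 loci of the deposited table, and each symbol kept its locus with the highest mean over the 8 libraries if that mean was at least 1. Of these, 32 matched a locus, and RBBP8, which encodes the resection factor CtIP, was left out at a mean of 0.56. This left 31 genes of the 10520 named genes at that level, while BRCA1, ATRIP and RAD54B were not analysed here. BRCA2, FANCM and SLX4 had means of 3.54, 3.78 and 3.34, under the mean of 5 that the model asked for. The tests therefore held 28 of the 31 genes, among 8599 genes in all.

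The Fanconi pathway repairs interstrand crosslinks, which block replication forks by tying both DNA strands together. A multisubunit core complex with the conjugating enzyme UBE2T attaches ubiquitin to the FANCD2-FANCI clamp, nucleases then unhook the crosslink, and the resulting break is repaired by homologous recombination, in which BRCA2, PALB2 and further mediators act on resected DNA. Many of these genes are transcribed mainly in cells that are in or near S phase, so their RNA level follows how many cells of a culture are cycling as well as the level in each cell.

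RNA was sequenced from the human line MEL202, derived from a uveal melanoma with mutant SF3B1. SF3B1 is a core component of the U2 small nuclear ribonucleoprotein that recognises intron branch points. There were 4 lines, each with and without Shld, a small ligand that keeps proteins fused to a destabilising domain from being degraded. The parental cells have no such domain. In the mutant degron line the labels place the domain on mutant SF3B1, and in the wildtype degron line on wildtype SF3B1. In the knockout line the mutant allele was knocked out. The labels of that line name no degron and give 2 days, whereas its column names in the deposited table add a destabilising domain at wildtype SF3B1 and give 4 days without Shld. Both degron lines are at 2 days without Shld in labels and column names alike, and the parental library without Shld is named as 4 days. The labels do not say whether an engineered line is 1 clone. Each of the 8 states had 1 library, and no protein level of SF3B1 or of any repair factor was measured.

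The values are rescaled FPKM, that is fragments per transcript length and library size, then set to a common 75th percentile of about 10 per library. Absolute depth was unknown. Judged by loci of low value, 1 unit of value stood for 1.05 to 1.48 times the fragments it did in the parental library with Shld. This factor was 1.45 with and 1.05 without Shld in the knockout line, and 1.48 with and 1.05 without it in the mutant degron line. Of 11 melanocyte marker names, among which PMEL is listed also as SILV, 9 were matched. All 9 had a mean of at least 1, with summed levels from 6854 to 16035. Of 10 immune, endothelial and epithelial markers 9 were matched, none reached a mean of 1, CD3E was listed at 0 in every library, and the sums ran from 0.251 to 1.27. Of 8 fibroblast markers 4 were matched, of which LUM alone had a mean of at least 1, and their sum ran from 1.64 to 29.9.

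Levels per transcript length differed widely among the 31 genes. FANCG, a core complex subunit, and UBE2T were the most abundant, with means of 227 and 208 rescaled FPKM, and SLX4, a scaffold for structure-specific nucleases, was the lowest at 3.34. With Shld, 24 of the 31 genes were higher in the knockout line than in both parental libraries, as were 40.6% of the 10520 named genes. In the mutant degron line 21 were above both parental libraries with Shld and 21 without, beside 37.1% and 36.5% of all genes. In the knockout library with Shld 15 genes had their highest value of all 8 libraries (13.5% of all genes did), and 15 had their lowest value in the wildtype degron line without Shld (15.4% of all genes).

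Shld withdrawal was compared first in the knockout line. Of the 28 genes tested, 6 fell and 0 rose: FANCD2, FANCA, RAD51AP1, RAD54L, BRIP1 and CHEK2. Over all genes tested 1.77% fell and 0.965% rose in this comparison (limma, Benjamini-Hochberg adjusted p below 0.05). The median difference of the 28 genes was -0.37 on the log2 scale, beside 0.0027 over all genes. Of the 28, 24 were below 0 and 14 had an unadjusted p below 0.05, beside 4246 and 1126 of the 8599 genes. Every difference is one of log2(value + 1), a scale that makes changes of low genes look smaller than they are, and ± is the model's standard error. Its spread comes from the parental pair alone, whose libraries also differ in Shld, and separate cultures are not stated. The p-values therefore measure only the spread within that pair, and every other library was taken to vary as it does. In bulk RNA, fewer cycling cells and less RNA per cell cannot be told apart.

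FANCD2 encodes the clamp subunit whose ubiquitination marks an active Fanconi pathway. Its level in rescaled FPKM, with and then without Shld, was 28.5 and 26.4 in parental cells, 36.4 and 16.8 in the knockout line, 25.1 and 18.3 in the wildtype degron line, and 34.4 and 34.2 in mutant degron cells. The knockout line thus held both the highest and the lowest of its 8 values. The fall was -1.07 ± 0.17, a ratio of 0.475 in value + 1, with an adjusted p of 0.000671. Its partner in the clamp, FANCI, was at 38.4 and 39.1 in parental cells, 52.0 and 34.6 in the knockout line, 43.0 and 35.1 in the wildtype degron line, and 45.9 and 49.9 in mutant degron cells. FANCI had the same 2 extremes, but its difference of -0.57 ± 0.17 did not pass the threshold (adjusted p = 0.0675).

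FANCA, the core complex gene mutated most often in Fanconi anaemia, was at 21.7 and 18.6 in parental cells, 22.8 and 12.6 in the knockout line, 14.5 and 12.5 in the wildtype degron line, and 20.6 and 19.4 in mutant degron cells. The knockout library without Shld lay with the wildtype degron libraries and under the other 5. The fall was -0.81 ± 0.17 (adjusted p = 0.0104). FANCL, the ubiquitin ligase of the core complex, stood at 45 and 37.8 in parental cells, 35.9 and 24.2 in the knockout line, 23.0 and 18.1 in the wildtype degron line, and 37.6 and 37.4 in mutant degron cells. Its difference in the knockout line was -0.55 ± 0.17 and lay just outside the threshold (adjusted p = 0.0911). UBE2T, the conjugating enzyme that FANCL binds, was at 302 and 216 in parental cells, 207 and 143 in the knockout line, 118 and 112 in the wildtype degron line, and 299 and 267 in mutant degron cells. The parental pair alone differed by -0.48, close to the -0.53 ± 0.23 of the knockout line (adjusted p = 0.288).

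The other core complex genes did not pass. FANCB was at 6.05 and 4.75 in parental cells, 8.93 and 6.19 in the knockout line, 4.21 and 4.0 in the wildtype degron line, and 7.33 and 6.57 in mutant degron cells, with a difference of -0.46 in the knockout line. FANCC, FANCE, FANCG and FANCF gave -0.33, -0.33, -0.04 and +0.22. Over all 8 libraries FANCC ran from 8.71 to 13.3, FANCE from 9.21 to 15.9, FANCF from 8.14 to 10.3 and FANCG from 176 to 251. FANCM, the translocase that anchors the core complex on DNA, stayed between 2.98 and 5.12 and was not in the model.

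Among the BRCA partners and recombination mediators, 2 of 7 fell. RAD51AP1, which binds DNA and promotes strand pairing, was at 30.9 and 23.7 in parental cells, 27.3 and 15.6 in the knockout line, 13.1 and 12.2 in the wildtype degron line, and 36.7 and 33.4 in mutant degron cells. Both wildtype degron libraries lay under every other library, and the parental pair differed by -0.37. The fall in the knockout line was -0.77 ± 0.18 (adjusted p = 0.0209). BRIP1, a helicase that partners BRCA1, was at 9.19 and 10.3 in parental cells, 17 and 10.1 in the knockout line, 12.1 and 8.77 in the wildtype degron line, and 15.3 and 15.0 in mutant degron cells. The fall in the knockout line was -0.70 ± 0.17 (adjusted p = 0.0275), from the highest of the 8 values to one between those of the parental pair.

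BARD1, which forms the ubiquitin ligase with BRCA1, stood at 6.53 and 6.97 in parental cells, 9.24 and 6.35 in the knockout line, 6.90 and 6.34 in the wildtype degron line, and 9.57 and 9.29 in mutant degron cells. XRCC2, a recombination mediator, was at 11.2 and 10.4, 12.3 and 9.45, 9.35 and 6.40, and 13.2 and 12.2 in the same order. RAD51C, another mediator, was at 70.3 and 70.3, 60.0 and 69.6, 51.7 and 50.9, and 66.0 and 69.8. BARD1 and XRCC2 had -0.48 and -0.34 in the knockout line and RAD51C had +0.21, none of them past the threshold. XRCC3, which works with RAD51C, ran from 13.7 to 17.7 over the libraries, PALB2, the bridge between BRCA1 and BRCA2, from 10.2 to 13.7, and BRCA2, a central recombination mediator, from 2.33 to 4.46. XRCC3 and PALB2 gave -0.31 and -0.20 in the knockout line.

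Both motor proteins were lower without Shld in the knockout line, and 1 passed. RAD54L, a translocase that remodels DNA during strand exchange, was at 16.7 and 16.1 in parental cells, 20.4 and 12.1 in the knockout line, 15.4 and 12.1 in the wildtype degron line, and 17.8 and 17.9 in mutant degron cells. The knockout line with Shld held the highest of the 8 values, and without Shld it matched the wildtype degron line after rounding. The fall was -0.71 ± 0.17 (adjusted p = 0.0209). BLM, the helicase that dissolves recombination intermediates, was at 5.21 and 5.48 in parental cells, 9.23 and 5.68 in the knockout line, 6.45 and 5.40 in the wildtype degron line, and 7.36 and 6.26 in mutant degron cells. Its difference of -0.61 ± 0.19 missed the threshold (adjusted p = 0.0799), and its level without Shld lay just above both parental libraries.

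None of the 4 resection and nuclease genes in the model passed in the knockout line. EXO1, a long-range resection nuclease, was at 38.1 and 39.3 in parental cells, 52.4 and 36.7 in the knockout line, 36.8 and 35.9 in the wildtype degron line, and 49.4 and 47.4 in mutant degron cells, a difference of -0.50 ± 0.17 in the knockout line (adjusted p = 0.121). MRE11A, the nuclease of the MRN complex that starts resection, was at 5.48 and 5.36, 14.5 and 11.1, 6.33 and 4.02, and 7.26 and 9.37 in the same order. Both knockout libraries were above the other 6. RAD50, the structural subunit of MRN, was at 10.5 and 11.2, 14.0 and 17.2, 15.6 and 17.2, and 10.1 and 11.5, and NBN, the third subunit, at 42.0 and 43.4, 49.9 and 49.5, 35.2 and 39.9, and 52.9 and 49.7. The 3 subunits of this complex did not move alike in the knockout line, with -0.36 for MRE11A, -0.01 for NBN and +0.28 for RAD50. SLX4 stayed between 2.79 and 3.84.

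Among the 5 checkpoint genes 1 fell. CHEK2, a kinase activated by ATM, was at 24.3 and 23.2 in parental cells, 25.0 and 15.3 in the knockout line, 15.3 and 13.1 in the wildtype degron line, and 24.0 and 22.5 in mutant degron cells. Its fall of -0.68 ± 0.17 (adjusted p = 0.025) brought it to the level of the wildtype degron line with Shld. CHEK1, the kinase activated by ATR, was at 14.6 and 16.0, 19 and 14.3, 13.2 and 12.7, and 17.9 and 16.2, with -0.39 in the knockout line. TOPBP1, an activator of ATR, was at 33.0 and 34.8, 41.8 and 34.8, 33.1 and 30.4, and 38.8 and 36.1, with -0.26. ATR itself stood at 4.96 and 5.14, 8.09 and 7.21, 6.08 and 5.86, and 6.92 and 6.38, and ATM at 14.3 and 11.0, 14.6 and 15.0, 17.5 and 16.8, and 14.2 and 12.4. These 2 apical kinases differed by -0.15 and +0.04 in the knockout line, the smallest sizes among the checkpoint genes.

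**Figure D1:**
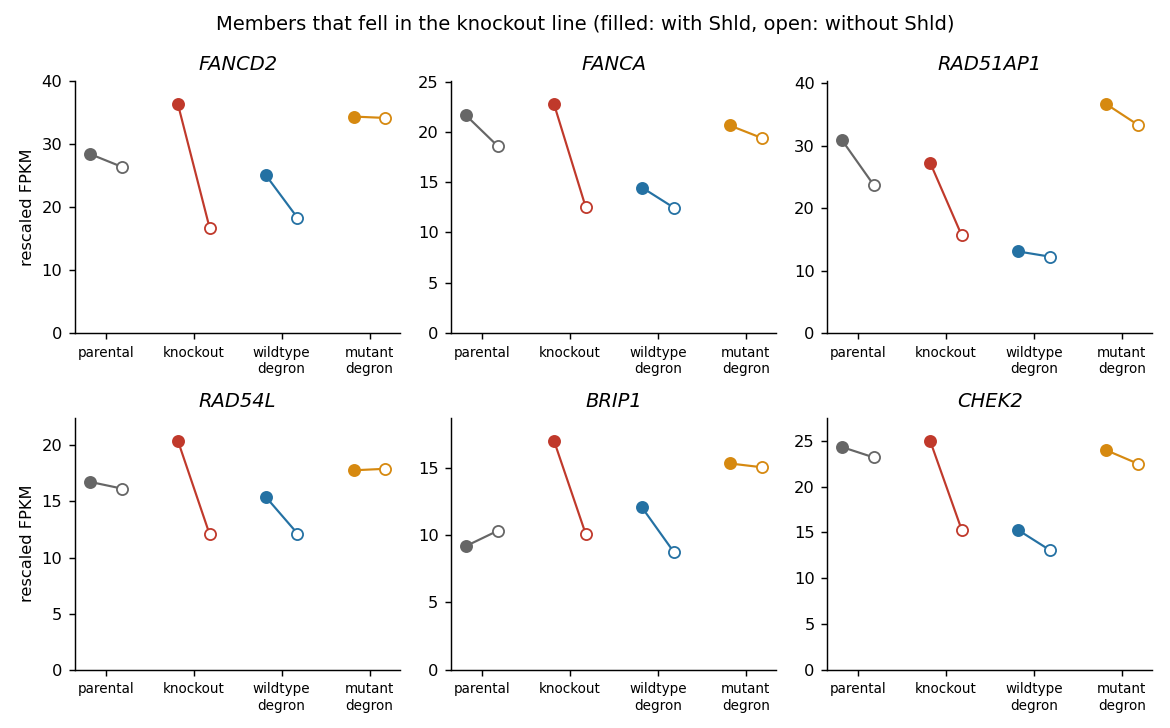
Level in rescaled FPKM (y axis, from 0) of the 6 genes that fell on Shld withdrawal in the knockout line, by line, with 1 library per point (filled with Shld, open without Shld). The knockout line drops in every panel, for FANCD2 from 36.4 to 16.8, and changes less in the other lines.

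**Figure D2:**
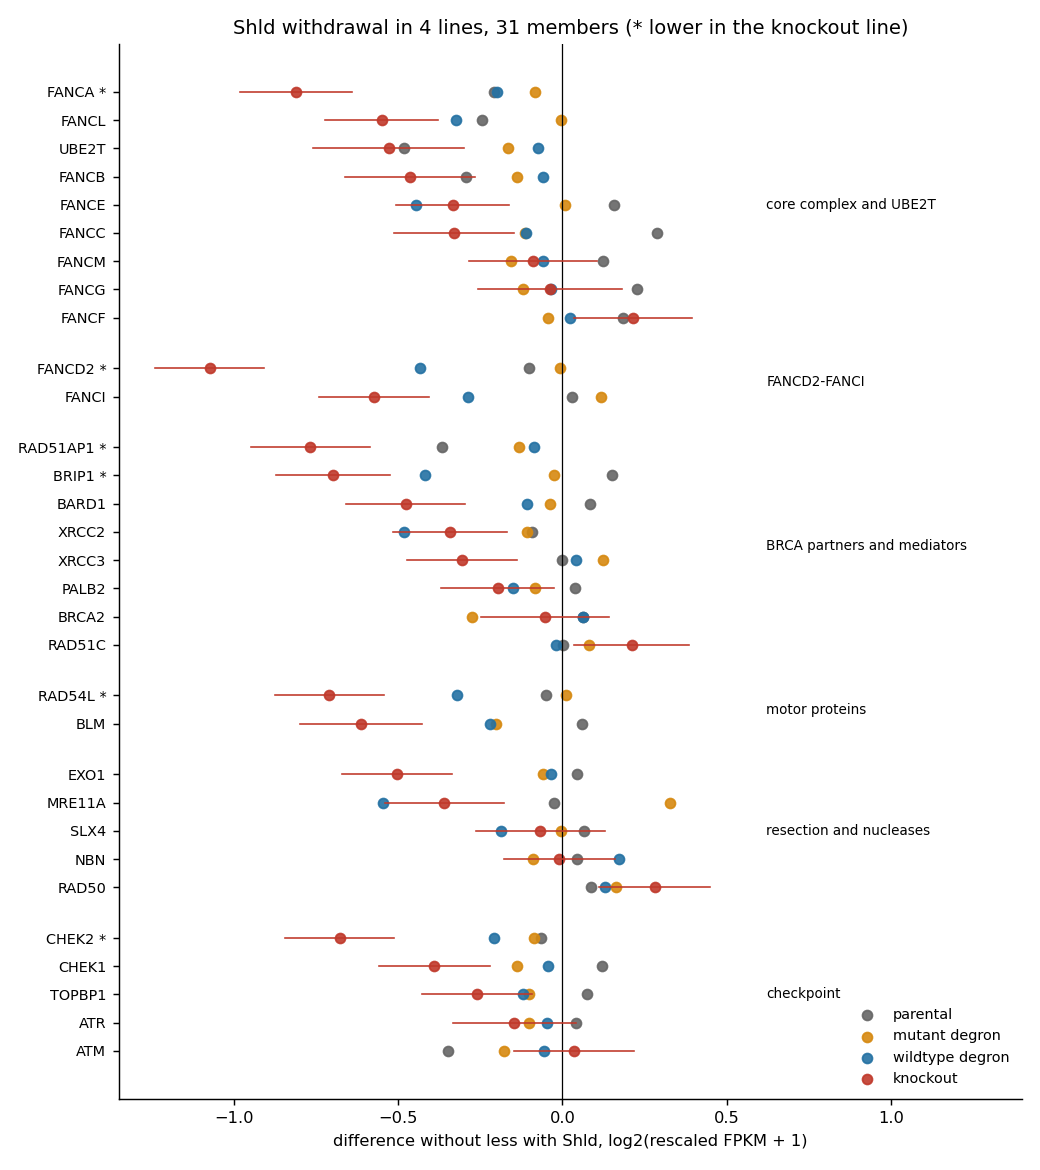
Difference without less with Shld on the log2(rescaled FPKM + 1) scale for 31 genes grouped by role, with 1 point per line and bars of 1 standard error of the model for the knockout line. Asterisks mark the 6 genes past the threshold in the knockout line, and FANCM, BRCA2 and SLX4 come from the fit with a mean of at least 1.

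These calls depended on the settings and rest on 1 knockout library with and 1 without Shld. Their fragments per unit were 1.45 and 1.05 times those of the parental library with Shld. The mutant degron libraries stood at 1.48 with and 1.05 without Shld, and the part of depth in the calls was not tested. With quantile normalization BRIP1 and RAD51AP1 no longer passed (adjusted p = 0.0628 for each). With the minimum mean lowered from 5 to 1, FANCD2 alone passed (adjusted p = 0.0164), and with no minimum or with a trend over transcript length subtracted 0 did, at FANCD2 differences of -1.07 and -1.10. Set against the parental library without Shld, which is also named as 4 days, the knockout library without Shld gave -0.63 for FANCD2, -0.57 for CHEK2, -0.57 for RAD51AP1, -0.53 for FANCA, -0.39 for RAD54L and -0.03 for BRIP1, with a median of -0.06 over the 28 genes. Less the change of the parental pair, the falls were -0.97 for FANCD2, -0.85 for BRIP1, -0.66 for RAD54L, -0.61 for CHEK2, -0.60 for FANCA and -0.40 for RAD51AP1. Both sets are values without a test and were added after the data were seen.

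Promoters were examined because these genes moved in 1 direction and because many cell cycle genes carry recognition words of E2F, of the CHR element or of the CCAAT factor NF-Y. RefSeq promoters on GRCh38.p14, 250 bases before to 50 after the start, were found for 28 of the 31 genes. The words TTTGGCG or TTTCCCG or TTTCGCG or TTTGCCG for E2F, TTTGAA or TTCGAA for the CHR, and CCAAT were searched on both strands, and no matches to different motifs overlapped in the sequences printed. An E2F word was in 10 of the 28 promoters (35.7%), beside 8.69% of all 27305 promoters of that length. It was in 2 of the 6 genes that fell and 8 of the 22 others. These others include FANCM, BRCA2 and SLX4, which were not in the model, and leave out FANCI, MRE11A and NBN, whose promoters were not matched. CCAAT was in 13 of 28 (46.4%, against 35.7% of all promoters), namely in 5 of the 6 fallers and 8 of the 22 others. A CHR word was in 4 of 28 (14.3%, against 16.6%), of which 1 was among the fallers. Only the words given were searched, so E2F sites with other letters were not counted. The 27305 promoters were not limited to genes measured here, and no share over expressed genes was made. A match describes letters in the window and not a bound site.

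The 4 promoters with the largest falls are printed 5′ to 3′ on the gene's strand, with matches in capitals, to show how differently the words lie in genes that fell together. FANCG, a core complex gene like FANCA with a difference of -0.04, is added as a contrast and was chosen after its value was seen. FANCD2 lies at chr3:10026187-10026486 on the plus strand, FANCA at chr16:89816598-89816897 on the minus strand, RAD51AP1 at chr12:4538640-4538939 on the plus strand, RAD54L at chr1:46247438-46247737 on the plus strand, and FANCG at chr9:35079893-35080192 on the minus strand, all on GRCh38.p14, whereas the expression values were made on hg19.
FANCD2: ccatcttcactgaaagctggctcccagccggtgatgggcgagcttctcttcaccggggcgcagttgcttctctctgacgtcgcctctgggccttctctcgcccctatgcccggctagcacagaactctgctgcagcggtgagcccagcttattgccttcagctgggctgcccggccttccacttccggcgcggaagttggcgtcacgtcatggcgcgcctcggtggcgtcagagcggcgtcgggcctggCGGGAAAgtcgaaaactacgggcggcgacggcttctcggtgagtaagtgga
FANCA: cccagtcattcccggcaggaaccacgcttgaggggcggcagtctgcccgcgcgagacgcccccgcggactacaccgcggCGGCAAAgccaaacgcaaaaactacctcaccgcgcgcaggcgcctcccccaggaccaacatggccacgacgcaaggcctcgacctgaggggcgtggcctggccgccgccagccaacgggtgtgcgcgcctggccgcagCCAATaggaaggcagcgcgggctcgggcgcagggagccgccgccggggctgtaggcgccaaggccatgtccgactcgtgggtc
RAD51AP1: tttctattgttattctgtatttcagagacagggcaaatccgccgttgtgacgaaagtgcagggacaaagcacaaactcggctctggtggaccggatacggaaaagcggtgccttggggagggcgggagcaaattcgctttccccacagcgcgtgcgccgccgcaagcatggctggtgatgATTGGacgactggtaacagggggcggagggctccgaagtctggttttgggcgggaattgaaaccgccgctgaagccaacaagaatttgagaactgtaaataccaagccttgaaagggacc
RAD54L: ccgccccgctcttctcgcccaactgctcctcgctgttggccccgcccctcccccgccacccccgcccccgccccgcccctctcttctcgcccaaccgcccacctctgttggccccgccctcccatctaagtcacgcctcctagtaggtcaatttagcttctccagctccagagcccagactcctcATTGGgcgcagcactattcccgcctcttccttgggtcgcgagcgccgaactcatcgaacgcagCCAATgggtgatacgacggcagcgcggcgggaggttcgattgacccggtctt
FANCG: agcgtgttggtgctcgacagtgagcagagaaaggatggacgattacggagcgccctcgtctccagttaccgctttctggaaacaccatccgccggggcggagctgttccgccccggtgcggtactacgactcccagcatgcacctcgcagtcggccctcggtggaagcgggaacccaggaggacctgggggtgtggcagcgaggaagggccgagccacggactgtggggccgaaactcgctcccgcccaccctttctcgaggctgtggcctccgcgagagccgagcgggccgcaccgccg
The FANCD2 window holds 1 E2F word, CGGGAAA, which begins at -1 from the start and runs past it, and no CCAAT word. In FANCA an E2F word, CGGCAAA, begins at -171 from the start and a CCAAT at -33. RAD51AP1 has 1 CCAAT word, on the opposite strand, at -70, and RAD54L has 2, at -65 and -2. No word of the 3 motifs was in the FANCG window, which says only that these letters are not in it.

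Withdrawal in the wildtype degron line gave no call: 0 of the 28 genes passed, while 0.0930% of all genes did. The median difference was -0.11, beside 0.015 over all genes, with 24 of 28 below 0, as were 3968 of the 8599 genes. An unadjusted p below 0.05 was found for 341 of the 8599 genes and for 5 members. The 5 were MRE11A (-0.55 ± 0.18), XRCC2 (-0.48 ± 0.17), FANCE (-0.44 ± 0.17), FANCD2 (-0.43 ± 0.17) and BRIP1 (-0.42 ± 0.17), all lower without Shld, with adjusted p from 0.572 to 1. FANCA and RAD51AP1, the next largest falls of the knockout line, had -0.20 and -0.09 here.

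In the mutant degron line 0 of the 28 passed, while 0.0465% of all genes did. An unadjusted p below 0.05 was found for 0 of the 28 and for 146 of the 8599 genes. The median was -0.08, beside -0.0074 over all genes, and 21 of 28 were below 0, as were 4542 of the 8599 genes. Differences ran from -0.20 for BLM to +0.33 for MRE11A, and FANCD2 had -0.01 ± 0.17. A miss of the threshold does not show that levels were alike. In the parental pair, which has no degron and supplies the spread, the median was +0.03. There 12 of the 28 were below 0, beside 3799 of the 8599 genes, and differences ran from -0.48 for UBE2T to +0.29 for FANCC.

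The differences between lines in their change were tested next. FANCD2 changed more in the knockout line than in the mutant degron line, by -1.07 ± 0.23 (adjusted p = 0.0331), where 1 of 28 members passed. Over all genes 0.279% were more negative and 0.174% more positive in the knockout line. This call was lost with quantile normalization (adjusted p = 0.0904), median centring (0.0572), a minimum mean of 1 (0.131), no minimum (0.377) and the length trend (0.453). FANCA, RAD54L and FANCI had -0.73, -0.72 and -0.69 in that test. There 9 members had an unadjusted p below 0.05, as did 758 of the 8599 genes. Between the knockout and the wildtype degron line 0 of 28 passed (0.0233% of all genes did). An unadjusted p below 0.05 was found for 269 of the 8599 genes and 3 members, RAD51AP1 at -0.68, FANCD2 at -0.64 and FANCA at -0.61. Between the degron lines 0 of 28 passed (0.244% of all genes). MRE11A at -0.87 ± 0.26 was the 1 member at an unadjusted p below 0.05 (adjusted p = 0.37), beside 373 of the 8599 genes. It was lower without Shld in the wildtype degron line and higher in the mutant degron line. If the column names hold, the knockout library was taken at 4 days and the degron libraries at 2, so line and time cannot be told apart in the tests against the knockout line.

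Lines were then compared with Shld present, each against the mean of both parental libraries, which the 3 comparisons share. In the knockout line 8 of 28 genes were higher and 0 lower, where over all genes 13.8% passed as higher and 15.2% as lower. MRE11A was higher by 1.27 ± 0.16 (adjusted p = 6.41e-07), BRIP1 by 0.75 ± 0.15 (0.000435), BLM by 0.69 ± 0.16 (0.00193), FANCB by 0.64 ± 0.17 (0.00561) and ATR by 0.59 ± 0.16 (0.007). EXO1 at +0.43, FANCI at +0.41 and FANCD2 at +0.40 passed by less, with adjusted p from 0.0283 to 0.04. The median of the 28 was +0.28. Other lists differed in the same comparison: of 26 genes of G1/S and replication 10 were higher and 0 lower (median +0.26), and of 30 further Fanconi and recombination genes 3 were higher and 4 lower (median -0.08). Of 9 melanocyte markers in the model 4 were lower and 0 higher (median -0.85), and LUM, the 1 fibroblast marker in the model, was lower by -3.28 ± 0.18 (adjusted p = 1.79e-13). Their part in the result was not tested. This comparison and the withdrawal share the knockout library with Shld, in which FANCD2 and BRIP1, both called in each, were high. When both knockout libraries were averaged the FANCD2 difference turned to -0.14, and MRE11A and ATR alone of the 8 still passed.

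In the wildtype degron line with Shld 6 genes were lower and 2 higher, where 18.4% of all genes were lower and 17.7% higher. The lower genes were led by UBE2T at -1.10 ± 0.20 (adjusted p = 0.000249), RAD51AP1 at -1.0 ± 0.16 (6.93e-05), FANCL at -0.82 ± 0.15 (0.000278) and CHEK2 at -0.61 ± 0.14 (0.00223). FANCA at -0.45 and RAD51C at -0.44 also passed on the lower side, and RAD50 at +0.49 and ATM at +0.44 on the higher side. The ubiquitination arm of the pathway, UBE2T and FANCL, was lowest in the 2 libraries of this line, whereas its substrate FANCD2 differed by -0.12 ± 0.14 (adjusted p = 0.534). In the mutant degron line BRIP1 at +0.60 ± 0.15 (adjusted p = 0.00496) and BARD1 at +0.45 ± 0.16 (0.0443) were higher and 0 genes lower, where 10.1% of all genes were higher and 10.6% lower. The counts in both degron lines are shares close to or below those over all genes, so they are given as values of these genes and not as a feature of the group.

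**Figure D3:**
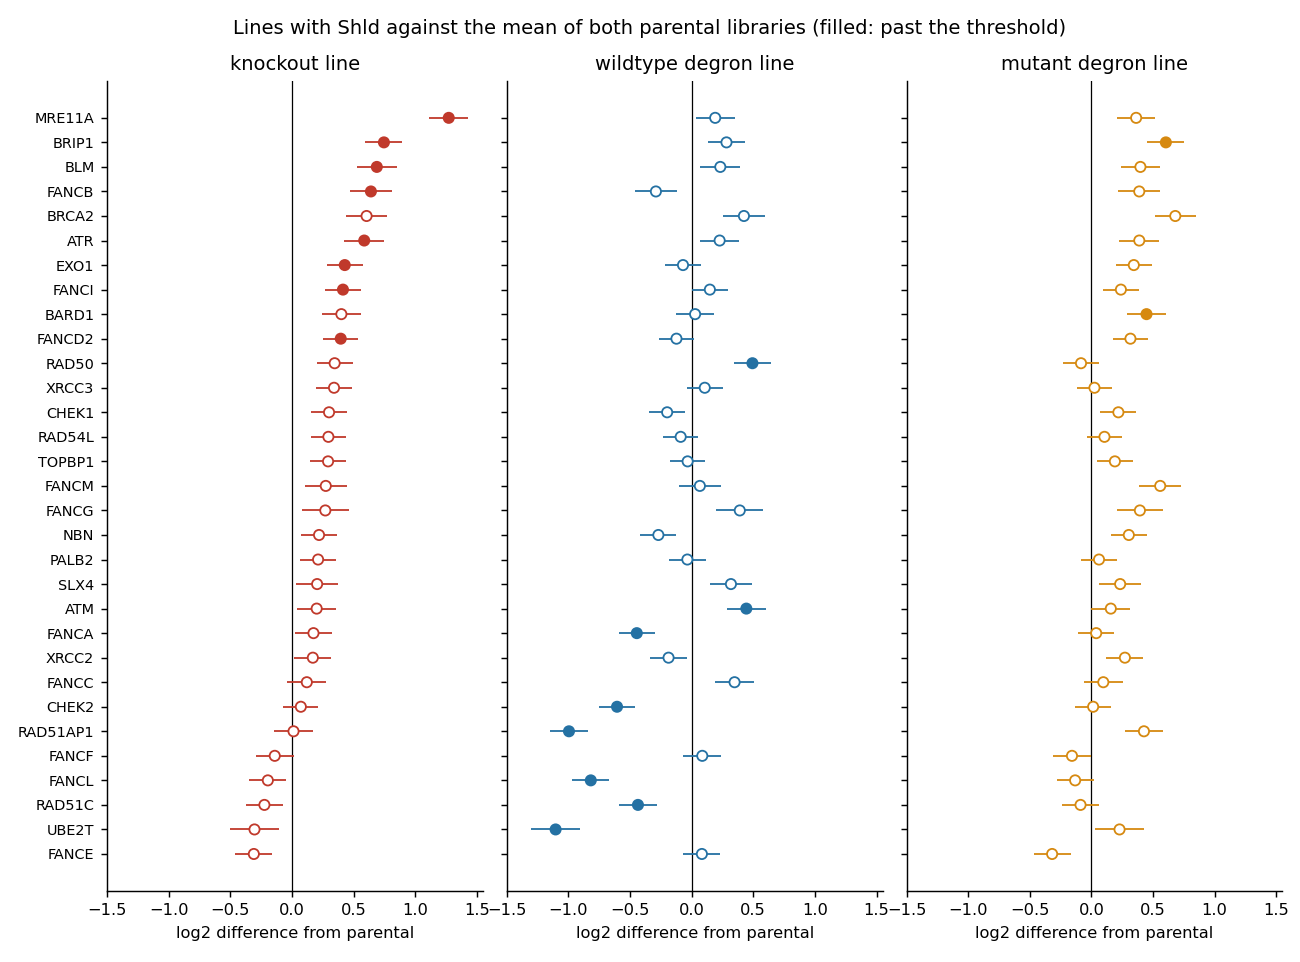
Difference of each line with Shld from the mean of the 2 parental libraries on the log2(rescaled FPKM + 1) scale for 31 genes, ordered by the knockout line, with bars of 1 standard error of the model. Filled points passed the threshold: MRE11A stands apart at +1.27 in the knockout line and UBE2T at -1.10 in the wildtype degron line.

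Lines with Shld were also compared with each other. Compared with the wildtype degron line, knockout cells had 12 of 28 genes higher and 0 lower (17.9% of all genes were higher and 18.7% lower), led by MRE11A at +1.08 ± 0.18, RAD51AP1 at +1.01 ± 0.18, FANCB at +0.93 ± 0.20 and UBE2T at +0.80 ± 0.23. With line means over all 4 pairs 8 were higher and 0 lower, beside 2233 and 2239 of the 8599 genes. There BRIP1, CHEK1, CHEK2, EXO1, FANCA and FANCD2 no longer passed, while ATR and RAD51C did. Compared with the mutant degron line, 1 gene was higher in knockout cells and 0 lower, namely MRE11A at +0.91 ± 0.18 (adjusted p = 0.00142), where 2.98% of all genes were higher and 3.90% lower. Between the degron lines 9 of 28 were lower in the wildtype degron line, led by RAD51AP1 at -1.42 ± 0.18 and UBE2T at -1.33 ± 0.23, and 1, RAD50 at +0.58 ± 0.17, was higher, where 1458 of the 8599 genes passed as lower and 1522 as higher, 34.7% together. MRE11A passed in the knockout line against each of the 3 others, but its call against the mutant degron line was lost with line means over all 4 pairs (+0.57, adjusted p = 0.0974), where UBE2T and RAD50 passed instead, and with no minimum level (adjusted p = 0.248).

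Other genes of the pathway were followed as lists that leave out the 31 genes. Of 30 further Fanconi and recombination genes in the model, 1 fell in the knockout line without Shld and 0 rose. Over all genes 1.77% fell and 0.965% rose there. The median of the 30 was -0.21, with 27 below 0. The faller was RMI2, a subunit of the BLM dissolvasome, which went from 27.0 to 12.4 (-1.07 ± 0.16, adjusted p = 0.000671) beside 34.7 and 35.4 in parental cells. C19orf40, the core complex partner of FANCM, went from 7.03 to 4.36 (-0.58, adjusted p = 0.106). Of 21 further checkpoint and chromatin signalling genes 4 fell, with a median of -0.23. These were H2AFX, the histone variant phosphorylated at breaks (-0.91 ± 0.17), CLSPN, the adaptor for CHEK1 activation (-0.68 ± 0.18), and the mitotic entry regulators CDC25C and PKMYT1 (-0.68 and -0.67).

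Repair genes of other pathways gave 0 calls in the same pair, where 1.77% of all genes fell and 0.965% rose. At those shares lists this short would give few calls or none. The 8 end joining genes had a median of -0.09, with PARP1 at -0.22, XRCC1 at -0.14 and LIG3 at -0.14 as the largest differences and 0 at an unadjusted p below 0.05. The 21 excision and mismatch repair genes had a median of -0.07, with 8 at an unadjusted p below 0.05, beside 1126 of the 8599 genes. LIG1, the replicative DNA ligase, had -0.58 and DDB2, a damage sensor that p53 induces, had +0.55. No test compared these lists with the 28 genes.

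Genes of the cell cycle moved in the same libraries, and their part in the result was not tested. Of 26 genes of G1/S and replication 6 fell and 0 rose in the knockout line without Shld, with a median of -0.52, and the largest were the polymerase subunits POLA1 at -0.96 and POLE2 at -0.96. In the G2/M and mitosis list 7 of 21 fell and 0 rose, with a median of -0.59 and all 21 below 0, led by CENPA at -0.91. Of 18 E2F and DREAM regulators 2 fell, MYBL2 at -0.85 and FOXM1 at -0.64. Of 17 p53 targets 11 rose and 0 fell, with a median of +0.77, and XPC and DDB2 of this list are also in the excision repair list. CDKN1A, the CDK inhibitor p21, went from 88.9 to 296 rescaled FPKM (+1.73 ± 0.19, adjusted p = 1.53e-05), against 98.9 and 109 in parental cells, 118 and 155 in the wildtype degron line, and 94.3 and 96.5 in mutant degron cells. In the wildtype degron line the medians of the G1/S, G2/M and p53 lists were -0.16, -0.17 and +0.21, and in the mutant degron line -0.05, -0.08 and +0.03, with 0 calls in both.

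**Figure D4:**
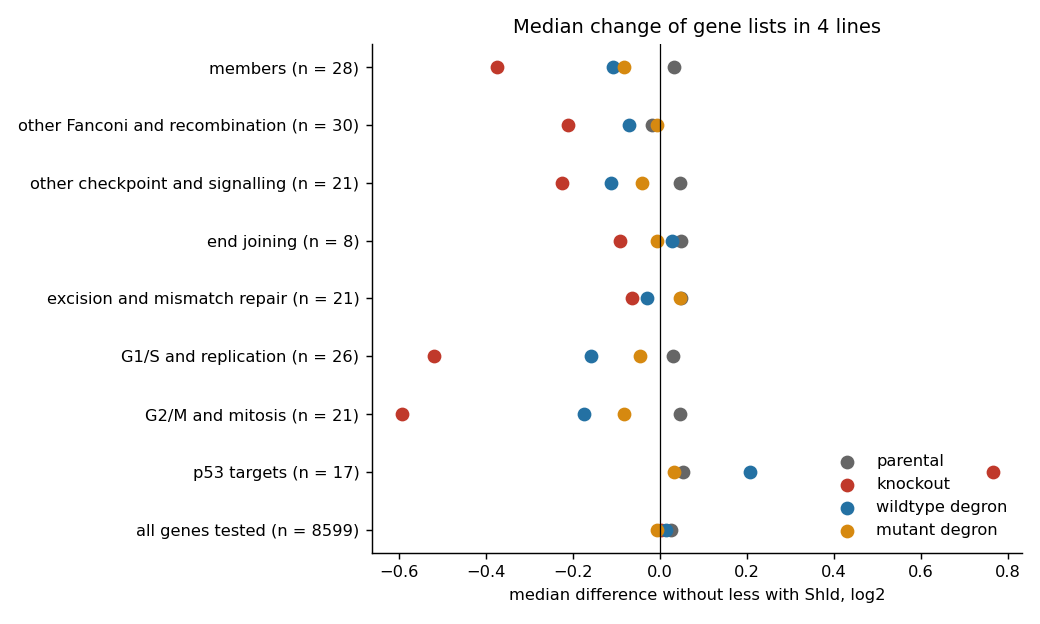
Median difference without less with Shld on the log2 scale for the 28 genes, for 7 other lists and for all 8599 genes tested, with 1 point per line. In the knockout line the 28 genes stand at -0.37, between the end joining list at -0.09 and the G2/M list at -0.59, while p53 targets stand at +0.77 and all genes at 0.0027.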

How the data were processed

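The authors deposited 1 table of FPKM-type values per locus, rescaled so that each library has a 75th percentile of about 10. That FPKM was their input is an inference, from the naming of Cufflinks and the range of values. The submitters' processing notes name TopHat, Cufflinks and hg19, and versions, annotation and strand use are not stated there. The values are not counts, so depth is unknown and no interval from counting was made.

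Columns were matched to samples by name. limma 3.58.1 in R 4.3.3 was fitted to log2(value + 1) of the 8599 named genes whose mean reached 5, with 1 locus per symbol, which left out 63 secondary loci. The parental pair gave the spread (1 residual and 23.3 prior degrees of freedom, mean-variance trend), and the 6 libraries fitted singly were taken to vary as that pair does. P-values were adjusted over all genes by the Benjamini-Hochberg method at 0.05. The fit was also run on simulated libraries, all drawn with the spread of the parental pair. That run could not show whether the other libraries vary as that pair does.

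Members and lists were chosen with earlier results of these data known. All values are given for members past the threshold in any comparison and for up to 3 per role with the largest difference in the knockout line, other members by range. From each list the genes past the threshold and up to 3 with the largest differences could be named. Alternatives were quantile normalization, median centring, a pseudocount of 0.1, a minimum mean of 1 or none, a subtracted length trend, other sources of spread, and each parental library left out.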

Additional observations from a re-analysis of the deposited data

Results flagged for a closer look

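The change of FANCD2 on Shld withdrawal differed between the knockout and the mutant degron line, by -1.07 on the log2 scale, in a test of the difference itself. That call was kept with a pseudocount of 0.1. It was lost with quantile normalization, median centring, a minimum mean of 1, no minimum level and a subtracted length trend. FANCD2 went from 36.4 to 16.8 rescaled FPKM in the knockout line and from 34.4 to 34.2 in the mutant degron line. Each value is 1 library, and the column names give 4 days for the first line and 2 for the second, so line and time cannot be told apart. Judged by loci of low value, fragments per unit in knockout and mutant degron libraries with Shld were 1.45 and 1.48 times those of the parental library with Shld. Without Shld they were 1.05 and 1.05. Absolute depth was unknown, and its part in the FANCD2 difference was not tested.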

How the results depend on the processing

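No paired analysis was possible because the groups compared share a single replicate number and hold 1 library each, and a Shld effect common to all lines was not among the comparisons. With no minimum level 0 genes passed in all 12 comparisons, so 0 members did. The length trend was fitted without MRE11A, which had no transcript length, so 27 members were tested there. With it subtracted 0 genes passed in the 3 withdrawals and the 3 differences of change, and 0 members passed in the knockout withdrawal, in knockout against mutant degron with Shld (256 genes) and in the FANCD2 difference. With Shld and that trend, 5 members were higher in the knockout line, beside 844 of 7970 genes higher and 903 lower. Against the wildtype degron line 7 were higher in knockout cells, beside 1039 genes higher and 1280 lower. In the mutant degron line 1 member passed (927 genes), and 1761 genes passed in the wildtype degron line. With a minimum mean of 1, 57 genes and 1 member passed in the knockout withdrawal, 4 genes in the wildtype degron withdrawal, 1 of the 28 members in the mutant degron line with Shld, 6, 14 and 5 genes in the differences of knockout to wildtype degron, knockout to mutant degron (0 members) and wildtype to mutant degron. BRCA2 and FANCM, whose means lie under 5, were also called higher by that fit in the mutant degron line with Shld, at +0.68 and +0.56. BRCA2 was called in the knockout line with Shld as well, at +0.61. Of the 10520 genes in that fit 878 were higher in the mutant degron line and 1320 in the knockout line. With quantile normalization the knockout, wildtype and mutant degron withdrawals gave 91, 3 and 0 genes. The difference of knockout to mutant degron gave 6 (3 higher, 3 lower, against 15 and 24) with 0 members, that between the degron lines 3 (0 higher, 3 lower, against 4 and 17), and the mutant degron line with Shld 1 member. Median centring gave 3 genes in the wildtype degron withdrawal, 22 (0 members) in the difference of knockout to mutant degron and 4 between the degron lines. A pseudocount of 0.1 gave 4 genes in the difference of knockout to wildtype degron.

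With the spread from the parental and knockout pairs, the wildtype and mutant degron withdrawals gave 1 and 0 genes and their difference 0. For the mean of both knockout libraries against parental cells that fit gave 3 members higher and 1 lower, beside 1110 and 1214 of the 8599 genes. With Shld it gave 1767 genes and 3 members in the wildtype degron line, and 682 genes and 0 members in the mutant degron line. Between the degron lines with Shld it gave 1447 genes and 3 members. With line means over all 4 pairs, 3 members were higher and 2 lower in the knockout line, beside 1601 and 1782 of the 8599 genes. In the mutant degron line 1 member was higher, beside 1044 genes higher and 1228 lower. In knockout against mutant degron 2 passed (1084 genes), and 4644 genes passed between the degron lines. FANCD2 in the knockout line with Shld turned from +0.40 to -0.14 in both of these fits, which average the knockout libraries. NBN in the knockout withdrawal turned from -0.01 to 0.022 with the length trend. The cause of the other shifts was not tested. Over all results and alternatives 593 values were counted as unchanged, meaning a test with the same direction and side of the threshold, a count within 1.5 times or an untested value that moved by less than the SD of the parental differences over all genes tested. A further 123 lost the threshold, 79 moved and 3 turned. The limits are 1 library per state, 1 residual degree of freedom and an unknown depth.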

Other observations

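The levels of 3 repair genes outside the 31 follow. They were chosen after their values were seen and are given without a test. LIG3, a DNA ligase of base excision and alternative end joining, was at 23.8 and 21.6 rescaled FPKM with and without Shld in knockout cells, and between 8.98 and 15.6 in the other 6 libraries. PRKDC, the catalytic subunit of DNA-dependent protein kinase, was at 71.8 and 71.4 in the parental pair and between 103 and 154 in the 6 libraries of engineered lines. WRN, a RecQ helicase like BLM, was highest in the knockout line with Shld at 49.8, but at 34.8 without Shld it lay among the other 6 libraries, which ran from 20.6 to 38.3.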
